A study of Homo sapiens with 6 samples.

Results

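The genes described here are 39 components of Fanconi anaemia repair, homologous recombination and the DNA damage checkpoint. They were taken by gene symbol from a list, each matched 1 row, and the table held 58735 genes in all. The libraries are labelled SKM-1, the name of a human myeloid leukaemia line, and RNA was sequenced 48 h after celastrol (3 libraries) or after DMSO, the solvent control (3 libraries). Celastrol is a plant triterpenoid, and no source used here gives its dose. Whether the libraries of a group came from separate cultures is also not stated, so each p-value measures spread among libraries of 1 line that could be technical.

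The Fanconi anaemia pathway repairs DNA crosslinks that join both strands and block replication forks. Its core complex, a multi-subunit ubiquitin ligase, works with the ubiquitin-conjugating enzyme UBE2T to attach ubiquitin to the FANCD2 and FANCI pair, and the marked pair recruits nucleases through the scaffold SLX4. The resulting break is mended by homologous recombination: MRE11, RAD50 and NBN sense the ends, RBBP8 and EXO1 resect them, BRCA1, PALB2 and BRCA2 prepare the strand for exchange, and BLM with its partners takes joined molecules apart. ATR and ATM are the kinases that signal the damage, and CHEK1 and CHEK2 are the kinases they activate. These genes are expressed in dividing cells, and inherited defects in the Fanconi genes cause bone marrow failure and leukaemia.

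Depth was similar over the libraries, with 15231742 to 16231066 listed reads with celastrol and 13549187 to 15410904 with DMSO. Reads of the mitochondrial chromosome made up 1.37 to 1.85% of a celastrol library and 5.44 to 5.65% of a DMSO library. Of the myeloid markers, SPI1 averaged 17.9 FPKM with DMSO (fragments per kilobase of gene, scaled to a library total) and CD33 1.68, while MPO, CEBPA and CSF3R lay below 1 FPKM on average and CD34 was listed at 0 in all 6 libraries. Erythroid genes were abundant, with RHAG at 261 FPKM and GATA1 at 158 with DMSO, and so was the epithelial keratin gene KRT19 at 125. The B cell gene MS4A1 and the fibroblast gene LUM were listed at 0 throughout. High erythroid genes and keratins with MPO and CD34 at or near 0 go against a plain myeloid profile, so the name of the line is used here as a label that was not checked by other means. Markers of 1 type moved in both directions between the treatments. Of the epithelial genes, KRT8 had means of 94.0 FPKM (celastrol) and 55.7 (DMSO), and KRT18 of 89.7 and 68.2, while EPCAM averaged 15.6 and 32.0 and KRT19 102 and 125. Of the erythroid genes, KLF1 averaged 44.1 and 104 and GATA1 111 and 158, while RHAG averaged 290 and 261 and HBG2 30.7 and 25.5. The myeloid gene LYZ averaged 17.6 and 38.0 and SPI1 22.3 and 17.9. Their part in the values that follow was not tested.

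Most of these repair genes did not pass the test between the treatments. A gene was tested if it averaged at least 1 FPKM over the 6 libraries, and 38 of the 39 did; RAD54B did not. With limma-trend on log2(FPKM + 0.1) and a Benjamini-Hochberg adjusted p under 0.05 over all 12685 genes tested, 5 members were lower with celastrol (FANCE, FANCA, FANCD2, FANCI and UBE2T) and 2 were higher (ATR and SLX4). Among all genes tested, 14.2% were called lower and 15.3% higher, 29.5% in either direction. The members' 7 calls of 38 are 18.4%, so the lower calls came at about the rate of all genes and the higher calls at less than it. The median log2 fold change was -0.05 over the members and 0.02 over all genes tested, and the members ran from -0.98 for FANCE to 0.55 for ATR. Of the 38 members, 11 had celastrol values that did not overlap the DMSO values, 4 higher and 7 lower, where 47.3% of all genes tested did not overlap, 25.3% higher and 22.0% lower. In bulk RNA, fewer cells of a type or phase and less RNA per cell cannot be told apart.

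The counts moved with some of the scalings and with 1 library. Under TPM (a per-length scale in which every library sums to the same total) the median of all genes tested shifted to 0.26, 86.6% of all calls were higher against 52.0% here, and the members gave 7 higher and 1 lower. Under equal listed reads the median was 0.12, 70.0% of calls were higher, and the members gave 3 higher and 4 lower. Relative to the median of all genes, the members' median was -0.07 or -0.08 as deposited and under both of these scalings. Quantile normalization and median ratio scaling each gave the same member calls as the main fit, 2 higher and 5 lower. Scaling to nuclear reads gave 2 higher and 4 lower, and limma-voom on recovered reads gave 3 higher and 6 lower. Without DMSO replicate 3 the members gave 1 higher (ATR) and 2 lower (FANCE and FANCD2), and all genes 1125 higher and 987 lower.

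By role, the calls lay as follows. Of the 11 members in the core complex, its conjugating enzyme and the FANCD2 and FANCI pair, 5 were lower and none was higher. Among all genes tested, 14.2% were lower and 15.3% higher. The median log2 fold change of the 11 was -0.28. Taken apart, the 9 genes of the core complex and its conjugating enzyme gave 3 lower and none higher. Their median was -0.07, near the -0.05 over all tested members. The FANCD2 and FANCI pair gave 2 lower, with a median of -0.40. Under TPM the 11 gave 1 lower (FANCE) and 1 higher (FANCM) with a median of -0.04. Without DMSO replicate 3 they gave 2 lower and none higher. Of the 27 other members tested, 2 were higher and none was lower, with a median of -0.03; under TPM 6 were higher and none lower, with a median of 0.21. As deposited, none of the 5 BRCA mediators, 4 recombination paralogues, 2 tested strand exchange partners, 5 end sensing and resection genes or 3 BLM dissolvasome genes passed; under TPM BRCA2, PALB2 and RMI1 of these, and the checkpoint gene ATRIP, were called higher. The difference between these roles was not tested. The roles hold members alone. A further 14 Fanconi factors, with FAAP20, FAAP24 and FAAP100 among them, were counted apart and gave 1 higher and none lower. The plot of estimates by role shows each gene with its 95% interval.

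**Figure D1:**
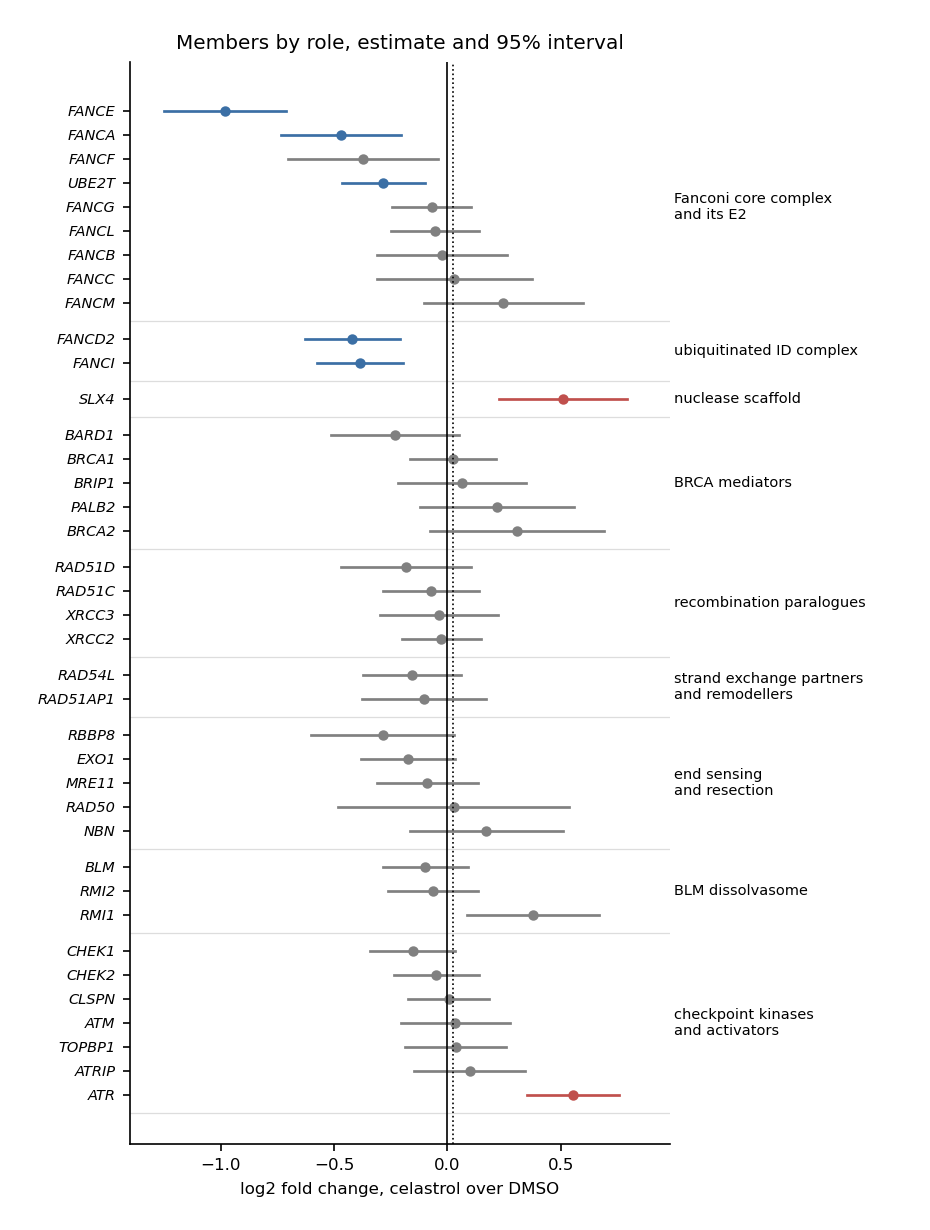
Log2 fold change of celastrol over DMSO (x axis) for the 38 tested members, grouped by role; points are limma-trend estimates and bars 95% intervals over 3 libraries a group. Blue marks the 5 genes called lower, red the 2 called higher and grey the other 31, the solid line is 0 and the dotted line the median of all genes tested, 0.02.

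Promoter letters are shown for 4 of the called genes: FANCE and ATR, which had the largest change in each direction, and FANCA and UBE2T, which held matches to cell cycle motifs. Each line is the 250 bases before the RefSeq start on GRCh38.p14, read 5′ to 3′ on the gene's strand. Capitals mark matches, on either strand, to the E2F words TTTCCCGC, TTTGGCGC, TTTCGCGC and TTTGCCGC, the CHR words TTTGAA and TTCGAA, or the CCAAT box.
FANCE, chr6:35452088-35452337, plus strand: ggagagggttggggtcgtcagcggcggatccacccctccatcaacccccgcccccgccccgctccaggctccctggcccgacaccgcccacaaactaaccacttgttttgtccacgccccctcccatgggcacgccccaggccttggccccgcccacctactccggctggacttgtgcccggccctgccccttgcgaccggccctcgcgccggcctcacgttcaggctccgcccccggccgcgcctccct
ATR, chr3:142578734-142578983, minus strand: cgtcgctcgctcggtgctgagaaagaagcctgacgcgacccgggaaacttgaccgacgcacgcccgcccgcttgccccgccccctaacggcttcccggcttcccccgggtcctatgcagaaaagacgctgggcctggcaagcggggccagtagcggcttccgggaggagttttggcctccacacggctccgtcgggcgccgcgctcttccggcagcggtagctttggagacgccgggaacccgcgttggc
FANCA, chr16:89816648-89816897, minus strand: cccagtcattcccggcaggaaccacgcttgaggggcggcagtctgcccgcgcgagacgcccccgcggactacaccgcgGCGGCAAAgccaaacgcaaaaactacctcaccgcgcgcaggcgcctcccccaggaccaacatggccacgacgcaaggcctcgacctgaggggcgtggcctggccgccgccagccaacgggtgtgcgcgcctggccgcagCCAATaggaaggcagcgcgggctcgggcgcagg
UBE2T, chr1:202341937-202342186, minus strand: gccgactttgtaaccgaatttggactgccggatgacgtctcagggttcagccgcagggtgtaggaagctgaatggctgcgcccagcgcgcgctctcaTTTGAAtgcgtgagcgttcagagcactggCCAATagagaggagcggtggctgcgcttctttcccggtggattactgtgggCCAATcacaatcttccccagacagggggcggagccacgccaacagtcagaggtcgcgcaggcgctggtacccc

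The FANCA window held an E2F word whose first base lay 172 bases before the start and a CCAAT box at 33 bases. In the UBE2T window a CHR word lay at 153 bases and CCAAT boxes at 124 and 73 bases. No word of these sets was in the FANCE or ATR window. RefSeq windows were found for 35 of the 39 members, and not for FANCI, NBN, RMI2 and RAD54B. Of those 35, 3 held an E2F word (8.57%; FANCA, FANCC and RMI1), 4 a CHR word (11.4%) and 18 a CCAAT box (51.4%). Over all 27305 genes with a window, the shares were 3.40%, 17.2% and 37.0%. The motifs do not overlap each other in the printed windows, and a match describes letters and not binding.

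Among core complex genes the fall was largest in FANCE, the subunit that contacts FANCD2. FANCE (GRCh38 chromosome 6, 35452356 to 35467103) lay at 10.2, 8.66 and 7.38 FPKM with celastrol and at 17.5, 16.7 and 17.5 with DMSO. Every celastrol library was well below every DMSO library, and the 3 celastrol libraries were more spread than the 3 DMSO libraries. The means were 8.75 ± 1.42 and 17.2 ± 0.494 FPKM (SD, n = 3 each), a 1.97-fold decrease (log2 fold change -0.98, SE 0.12, adjusted p = 0.00118). FANCE was called lower in all 19 alternative settings run. Its rank by level among the 39 members was 7 with DMSO and 18 with celastrol. With DMSO it was 1.82 ± 0.0458 times as abundant as the core subunit FANCG, which binds FANCA. With celastrol this ratio of levels was 0.974 ± 0.184 (SD, n = 3).

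FANCA, the core subunit most often mutated in Fanconi anaemia, fell by less. FANCA (chromosome 16, 89737549 to 89816657) lay at 6.99, 6.45 and 5.33 FPKM with celastrol and at 9.45, 8.19 and 8.37 with DMSO. The groups did not overlap, and celastrol replicate 3 was the lowest library of the 6. The decrease between means was 1.39-fold (log2 fold change -0.47, SE 0.11, adjusted p = 0.0191). The call of FANCA was lost under TPM (adjusted p = 0.143), when genes of low level were kept in (0.0611) and without DMSO replicate 3 (0.0541). Of its exon bases, 23.6% lie in exons of ZNF276 on the other strand.

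UBE2T, the ubiquitin-conjugating enzyme of the pathway, was the most abundant member in both groups. UBE2T (chromosome 1, 202331657 to 202341980) lay at 31.5, 28.8 and 28.6 FPKM with celastrol and at 33.5, 38.5 and 36.2 with DMSO. The groups did not overlap but came close, at 31.5 and 33.5. The decrease between means was 1.22-fold (log2 fold change -0.28, SE 0.08, adjusted p = 0.0318). This was the least stable of the 7 calls, and it held in 9 of 19 alternative settings. Among the left-out libraries it held without celastrol replicate 1 and without DMSO replicate 1. It was lost in the other 4 cases (highest adjusted p = 0.115). Under TPM the log2 fold change was -0.04 (adjusted p = 0.712).

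The other members of the core complex did not pass. FANCF, an adaptor of the complex, lay at 4.14, 2.90 and 3.97 FPKM with celastrol and at 4.38, 5.01 and 4.81 with DMSO. Its groups did not overlap, and celastrol replicate 2 was the low library. The log2 fold change was -0.37 (SE 0.14, adjusted p = 0.0873), with calls under limma-voom on recovered reads (0.0489) and with protein-coding genes alone (0.0387). FANCG, FANCL (the subunit with the ligase activity), FANCB and FANCC had log2 fold changes of -0.07, -0.06, -0.02 and 0.03. The 95% intervals as folds ran from 0.845 to 1.07 for FANCG, 0.840 to 1.10 for FANCL and 0.805 to 1.29 for FANCC. FANCM, the translocase that brings the complex to stalled forks, was at 0.25 (adjusted p = 0.252). FANCM's celastrol libraries, 2.10 to 2.15 FPKM, were just above its DMSO libraries, 1.54 to 2.06.

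**Figure D2:**
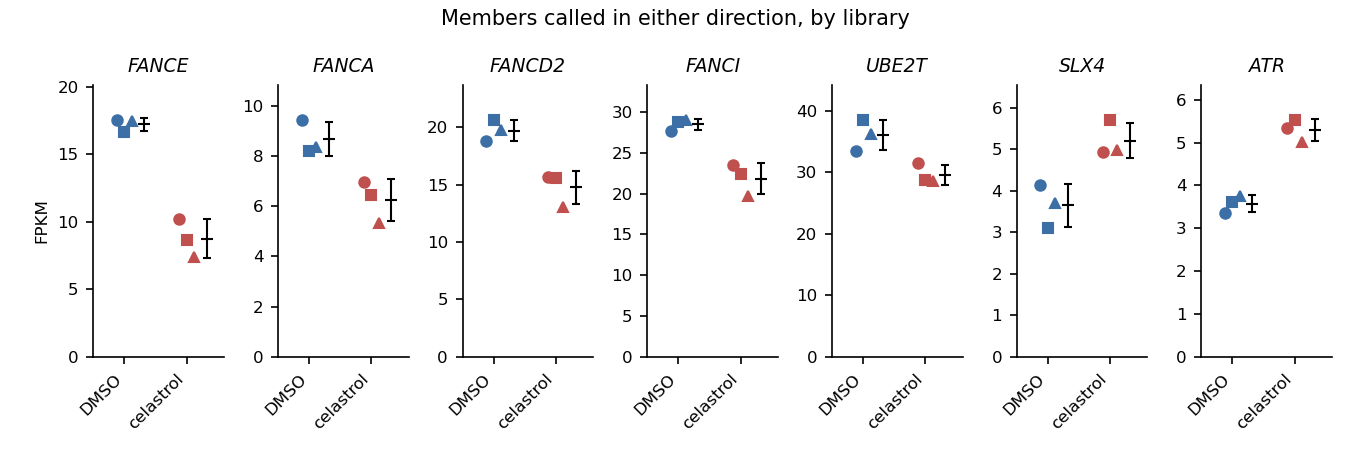
FPKM (y axes, from 0, scaled per gene) of the 7 called members in each DMSO (blue) and celastrol (red) library; circles, squares and triangles are replicates 1, 2 and 3, and the black bars are the mean and SD of 3 libraries. FANCE shows the widest gap, from 16.7 in the lowest DMSO library to 10.2 in the highest celastrol library, and UBE2T the narrowest relative gap among the genes that fell.

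FANCD2 and FANCI, the paired proteins that carry the ubiquitin mark, fell together. FANCD2 (chromosome 3, 10026414 to 10101930) lay at 15.6, 15.6 and 13.1 FPKM with celastrol and at 18.8, 20.6 and 19.7 with DMSO. FANCI (chromosome 15, 89243949 to 89317261) lay at 23.5, 22.4 and 19.7 FPKM with celastrol and at 27.7, 28.7 and 29.0 with DMSO. For both genes the groups did not overlap, and celastrol replicate 3 was the lowest library. The decreases were 1.34-fold for FANCD2 (log2 fold change -0.42, SE 0.09, adjusted p = 0.0123) and 1.30-fold for FANCI (-0.38, SE 0.08, adjusted p = 0.0116). The ratio of the FANCD2 level to the FANCI level was 0.675 ± 0.0176 with celastrol and 0.692 ± 0.0228 with DMSO, a difference smaller than the SDs. Both calls were lost under TPM (adjusted p = 0.187 and 0.222), and that of FANCI without DMSO replicate 3 (0.0529). FANCD2 has pseudogene copies in the genome, and FANCD2P2 was listed at 0 in every library. How reads that match both were counted is not stated, which leaves the FANCD2 level uncertain. The same limit applies to CHEK2 and MRE11, whose copies CHEK2P2 to CHEK2P5 and MRE11P1 were also at 0. It applies as well to RAD51AP1 and RBBP8, whose copies RAD51AP1P1 and RBBP8P1 had at most 3 and 7 reads a library.

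SLX4, the scaffold for the nucleases that cut the crosslink out, moved the other way. SLX4 (chromosome 16, 3581181 to 3611598) lay at 4.93, 5.70 and 4.98 FPKM with celastrol and at 4.12, 3.10 and 3.70 with DMSO. All celastrol libraries were above all DMSO libraries, and replicate 2 was the highest celastrol and the lowest DMSO library. The increase between means was 1.43-fold (log2 fold change 0.51, SE 0.12, adjusted p = 0.0183). Its call was lost when celastrol replicate 2 (adjusted p = 0.0715) or DMSO replicate 3 (0.0545) was left out and when genes of low level were kept in (0.0589).

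ATR, the kinase that answers stalled forks and single-stranded DNA, had the largest rise. ATR (chromosome 3, 142449235 to 142578826) lay at 5.33, 5.53 and 5.02 FPKM with celastrol and at 3.36, 3.60 and 3.76 with DMSO. The groups were clearly apart, with close replicates in each. A pseudogene on the other strand, AC109992.1, shares 16.4% of the ATR exon bases and was listed at 0 in every library. The means were 5.29 ± 0.256 and 3.57 ± 0.204 FPKM (SD, n = 3 each), a 1.48-fold increase (log2 fold change 0.55, SE 0.09, adjusted p = 0.00374). ATR was called higher in all 18 alternative settings that tested it. Its obligate partner ATRIP was at 3.52 ± 0.305 and 3.28 ± 0.211 FPKM, with groups that overlapped (log2 fold change 0.10, adjusted p = 0.515). The ATR level was 1.09 ± 0.111 times that of ATRIP with DMSO and 1.51 ± 0.0590 times with celastrol.

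None of the other checkpoint genes passed. ATM, the kinase that answers double-strand breaks, lay at 4.13, 4.51 and 4.73 FPKM with celastrol and at 3.88, 4.47 and 4.73 with DMSO. The groups overlapped along nearly their whole range, and the 95% interval of the fold ran from 0.867 to 1.21. CHEK1, the kinase downstream of ATR, had a log2 fold change of -0.15 (adjusted p = 0.189), and without DMSO replicate 1 it was called lower (-0.22, adjusted p = 0.0444). CHEK2, the kinase downstream of ATM, was at -0.05 with a fold interval of 0.850 to 1.10. TOPBP1, which activates ATR, and CLSPN, which couples ATR to CHEK1, had log2 fold changes of 0.04 and 0.01, and the fold interval of CLSPN was 0.887 to 1.14.

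BRCA1 and its partners kept overlapping groups. BRCA1, a ubiquitin ligase of resection and recombination, lay at 16.2, 17.8 and 15.8 FPKM with celastrol and at 15.1, 17.1 and 16.8 with DMSO. The values interleaved, and the fold interval was 0.892 to 1.16 (log2 fold change 0.03, adjusted p = 0.837). BARD1, with which BRCA1 forms a stable pair, was far less abundant per length, at 2.70 ± 0.193 and 3.19 ± 0.363 FPKM (SD, n = 3; log2 fold change -0.23, adjusted p = 0.190). The ratio of the BRCA1 level to the BARD1 level was 5.57 to 6.72 with celastrol and 4.92 to 5.41 with DMSO. These ranges did not overlap, though they came close, and the ratio was not tested. BRCA2, which prepares single strands for exchange, and PALB2, which joins BRCA2 to BRCA1, had log2 fold changes of 0.31 and 0.22 (adjusted p = 0.201 and 0.292). For both genes DMSO replicate 1 was the lowest library of the 6, at 1.53 and 3.94 FPKM. BRIP1, a helicase bound to BRCA1, was at 0.06 with a fold interval of 0.859 to 1.27.

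The recombination paralogues, which help filaments form on single-stranded DNA, were RAD51C, RAD51D, XRCC2 and XRCC3. Their log2 fold changes were -0.07, -0.18, -0.03 and -0.04, and none passed. XRCC2 was the most abundant of them as deposited, at 12.9 ± 0.170 FPKM with celastrol and 13.2 ± 0.918 with DMSO. Of the strand exchange partners, RAD54L, the motor that drives strand exchange, was at -0.16 (adjusted p = 0.244) and RAD51AP1, which stimulates strand pairing, at -0.10 (adjusted p = 0.544). RAD54B, a relative of RAD54L, lay between 0.582 and 1.01 FPKM, with 49 to 75 reads a library, and was not tested.

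End sensing and resection genes also failed to pass. MRE11, the nuclease of the sensing complex, had a log2 fold change of -0.09 and RAD50, its clamp-like partner, 0.03, with fold intervals of 0.806 to 1.10 and 0.716 to 1.45. NBN, the complex's link to ATM, lay at 14.1 to 15.0 FPKM with celastrol and at 10.1, 15.7 and 13.4 with DMSO, where replicate 1 was the low library (log2 fold change 0.17, adjusted p = 0.408). RBBP8, also known as CtIP, lay at 7.21 to 7.39 FPKM with celastrol and at 7.12, 10.5 and 9.50 with DMSO. Without DMSO replicate 1, which sat among the celastrol values, RBBP8 was called lower (log2 fold change -0.45, adjusted p = 0.00902), against -0.29 and 0.152 with all libraries. EXO1, the long-range nuclease, was at -0.18 (adjusted p = 0.179), and its celastrol libraries, 16.2 to 18.9 FPKM, nearly touched its DMSO libraries, 18.9 to 21.8.

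In the BLM dissolvasome, RMI1 came closest to a call. RMI1, which stabilises BLM with its topoisomerase, lay at 7.41, 6.59 and 6.51 FPKM with celastrol and at 4.48, 6.23 and 5.14 with DMSO. The groups did not overlap, but DMSO replicate 2 was near the celastrol values. The log2 fold change was 0.38 (SE 0.13, adjusted p = 0.0572), and RMI1 was called higher in 6 of 19 alternative settings, among them without DMSO replicate 2 (0.0148). The helicase BLM and the third subunit RMI2 were at -0.10 and -0.06, with fold intervals of 0.820 to 1.06 and 0.834 to 1.10.

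The 31 tested members without a call differed in how tightly they were measured. The 95% interval lay within 1.25-fold in both directions for 14 of them, including BRCA1, XRCC2, BLM, ATM, CHEK2, TOPBP1 and CLSPN. It lay within 1.5-fold for 26. The exceptions were FANCF, FANCM, BRCA2, RBBP8 and RMI1.

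Some libraries stood low or high for many members at a time. Celastrol replicate 3 was the lowest celastrol library for 25 of the 38 tested members (65.8%) and for 35.9% of all genes tested. DMSO replicate 1 was the lowest DMSO library for 25 members (65.8%) and for 39.3% of all genes tested, and DMSO replicate 2 was the highest for 24 (63.2%, against 34.5%). Members are not independent of each other, and the part of this in the calls was not tested beyond leaving out each library.

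By FPKM as deposited, the order of the members was much the same in both groups. With DMSO the most abundant were UBE2T, FANCI, EXO1, FANCD2 and RAD54L, and with celastrol UBE2T, FANCI, EXO1, RAD54L and BRCA1. RAD54B and RAD50 were the lowest in both. EXO1, FANCD2 and RAD54L, at 19.9 ± 1.65, 19.7 ± 0.925 and 18.5 ± 1.27 FPKM with DMSO, did not differ beyond their spread. This order changes once shared exons are left out of the length: per unshared base RAD54L lay at 22.8 to 25.9 FPKM with DMSO, above EXO1 (18.9 to 21.8) and FANCD2 (19.4 to 21.3), and RAD50 averaged 5.39 over the 6 libraries. As deposited, ATR moved from rank 30 with DMSO to rank 25 with celastrol.

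**Figure D3:**
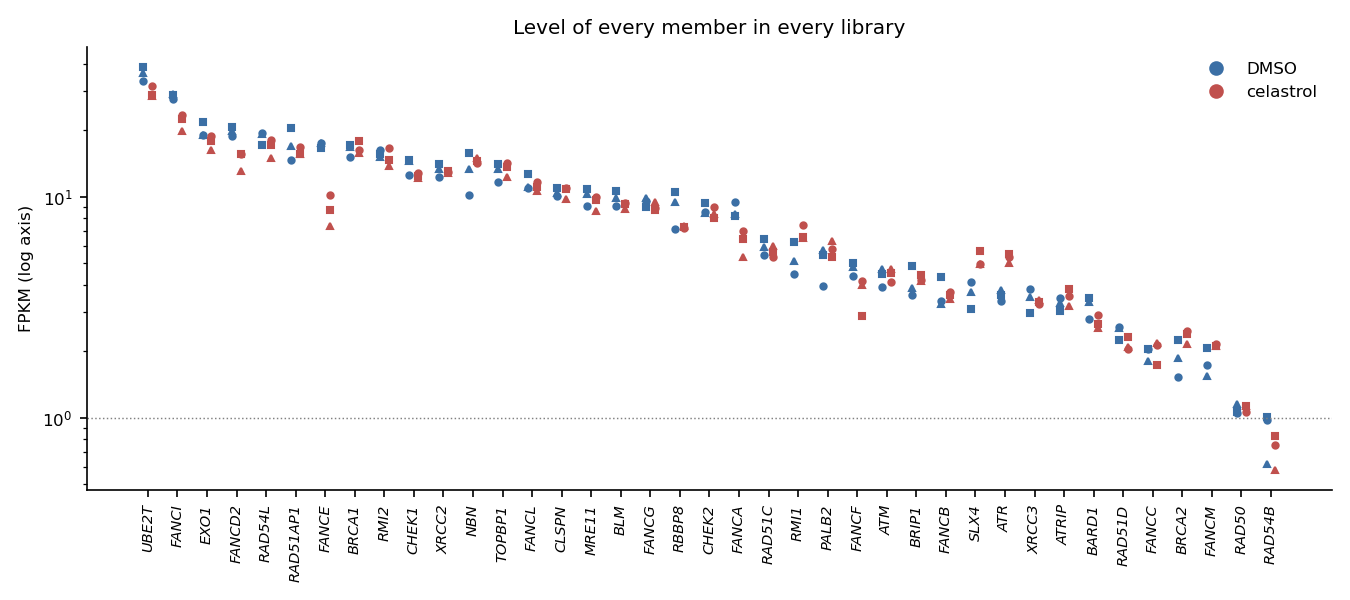
FPKM on a log axis of all 39 members in every DMSO (blue) and celastrol (red) library, ordered by the DMSO mean; circles, squares and triangles are replicates 1, 2 and 3, and the dotted line is 1 FPKM. FANCE stands out as the gene that leaves the order, and RAD50 and RAD54B lie near 1.

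Levels of several members depend on exons they share with other genes, a check added after the values were seen. Of 710 genes whose exon bases all lie in exons of genes on the other strand, 709 were listed at 0 reads in all 6 libraries; of 41758 genes that share no exon base, 52.0% were. Genes fully covered by exons on the same strand were at 0 in 1071 of 1139 cases. Among protein-coding genes alone these were 16 of 17 covered on the other strand and 223 of 282 on the same strand (79.1%, the rest reaching 1325 reads), against 22.2% of 11097 that share none. Exons shared with a gene on either strand thus mostly gave few listed reads, while gene lengths still count those bases. Exon bases were shared for 24 of the 39 members, over 50% of them for RAD50, XRCC3 and RAD54B.

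RAD50 showed this most. It was listed at 1.05 to 1.16 FPKM, against 9.41 ± 0.730 and 10.0 ± 0.914 for MRE11 in the same complex, and 79.7% of its exon bases also belong to AC116366.3, a protein-coding gene on the same strand. Divided by the unshared bases alone, the same reads gave 5.14 to 5.69 FPKM. XRCC3 shares 76.7% of its exon bases with KLC1 on the other strand, and its level went from 2.98 to 3.80 FPKM as deposited to 12.8 to 16.3 per unshared base, near that of XRCC2. RAD54B shares 59.1% with FSBP and reached 1.42 to 2.46. A fold change between treatments is the same under either length. ATRIP shares 27.9% with TREX1, which was listed at 0 in all 6 libraries.

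Other genes of these pathways gave calls in both directions. Of a list of 72, 66 were tested, 9 were higher and 6 were lower (22.7% called, where all genes gave 29.5%), with a median log2 fold change of 0.07; under TPM 34 were higher and none lower, and without DMSO replicate 3 these were 6 and 1. Against 15.3% higher among all genes tested, the 11 genes of the chromatin response to breaks had 5 higher and none lower (3 higher without DMSO replicate 3). They included TP53BP1, which protects ends from resection, from 7.71 ± 0.439 to 10.5 ± 0.531 FPKM (log2 fold change 0.44, adjusted p = 0.00571), and BABAM1, of the BRCA1-A complex, at 0.50. SWI5, a recombination factor, and EME2 rose by 0.53 and 0.57 on the log2 scale, EME2 with a call that was lost without celastrol replicate 2 (adjusted p = 0.0740), celastrol replicate 3 (0.0860), DMSO replicate 1 (0.0563) or DMSO replicate 2 (0.0644). EME1, which pairs with the nuclease MUS81 as EME2 does, fell by 0.38 on the log2 scale, from 9.87 ± 0.717 to 7.56 ± 0.370 FPKM (SD, n = 3), and MUS81 fell by 0.42, with a call that was lost without celastrol replicate 2 (adjusted p = 0.0622) or DMSO replicate 3 (0.0599). DNA2, a resection nuclease, fell by 0.38 and the strand-annealing gene RAD52 by 0.43. With 1 library left out, the RAD52 call was lost in every setting (highest adjusted p = 0.127) and the DNA2 call in most (0.113). All 4 of these falls missed the threshold under TPM (lowest adjusted p = 0.114). Exons of other genes covered 14.1 to 32.6% of the exon bases of MUS81, EME1, TP53BP1, EME2 and BABAM1. Of the 14 other Fanconi factors, 1 was higher (FAAP20, at 0.33, named after its values were seen) and none lower. That list gave 9 higher under TPM and 5 under equal listed reads, and none with quantile normalization, median ratio scaling, no filter, no intensity trend or the replicate block; leaving out 1 library gave 0 to 3.

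Cell cycle genes are given beside these calls, since many repair genes are expressed with the cell cycle. Among all genes tested, 14.2% were lower and 15.3% higher. Of 20 S phase and E2F target genes 7 were lower and none was higher, with a median log2 fold change of -0.17. Under TPM these were 2 lower and 4 higher with a median of 0.07, and without DMSO replicate 3 there were 2 lower and none higher. CDT1, which licenses replication origins, fell by 0.94 from 134 ± 8.51 to 70.3 ± 10.3 FPKM, thymidylate synthase TYMS by 0.55 and cyclin E1, CCNE1, by 0.40, whose call was lost without celastrol replicate 1, celastrol replicate 2 or DMSO replicate 3 (0.0541 to 0.0567). PCNA, the replication clamp, was at 0.08 (adjusted p = 0.428). Of 19 tested G2 and mitosis genes 4 were higher and 1 was lower (2 and 1 without DMSO replicate 3, and 14 and 1 under TPM): BUB1 and CDC20 rose by 0.45 and 0.31, AURKB fell by 0.55, and MKI67 was at 0.06 (adjusted p = 0.632). The CDC20 call was lost without any 1 celastrol library or without DMSO replicate 3 (0.0531 to 0.0894). The part of the cell cycle genes in the members' values was not tested.

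**Figure D4:**
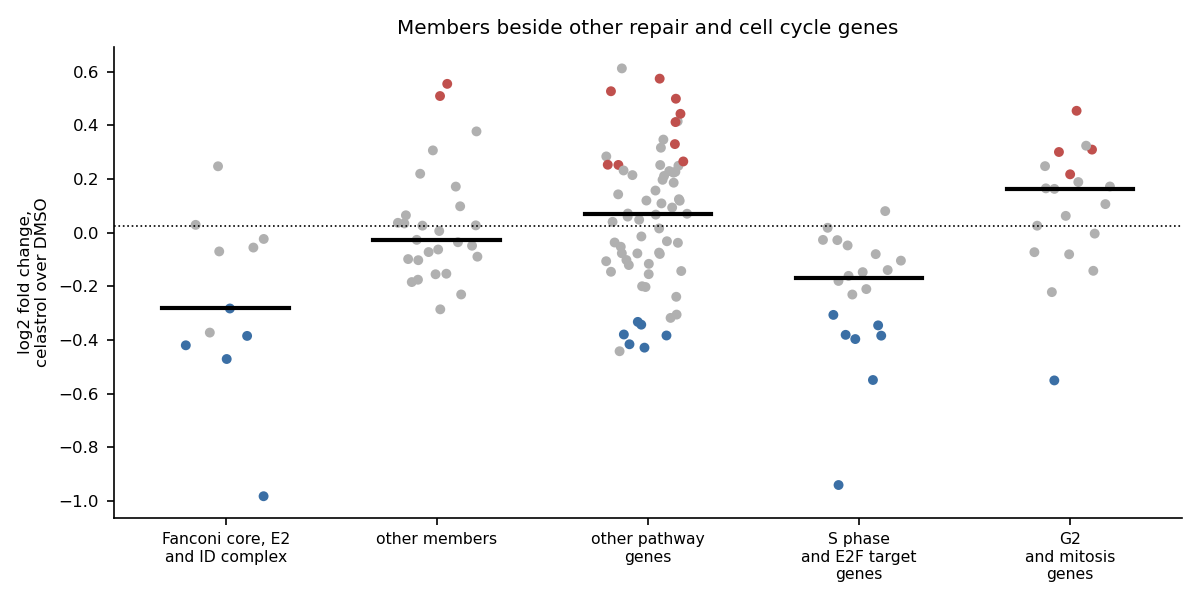
Log2 fold change of celastrol over DMSO (y axis) of each tested gene in 5 groups of genes: the core complex with its conjugating enzyme and the FANCD2 and FANCI pair, the other members, other pathway genes, and 2 cell cycle lists. Red and blue points were called higher and lower, grey were not called, black bars are medians and the dotted line is the median of all genes tested. The first group's median is -0.28 and the S phase list's is -0.17. Without the FANCD2 and FANCI pair, the 9 other genes of the first group have a median of -0.07.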

How the data were processed

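The authors deposited FPKM for each gene and library; the submitters' processing notes name featureCounts 1.5.0-p3, HISAT2 2.0.5 and the build GRCh38, with settings not given in the sources used here. Every one of the 58735 gene identifiers matched GENCODE release 29, and 58724 had its positions and summed exon lengths, which gave the exon overlaps. Gene lengths are as deposited by the authors, in bases. Multiplying FPKM by gene length gave whole multiples of a unit that was fixed in each library for 100% of values (to 0.001 read), and reads were recovered this way. The library total implied by the authors' FPKM was 1.04 to 1.05 times the listed reads with celastrol and 0.963 to 0.994 times with DMSO. With DMSO it was thus smaller than the reads listed, so it was not a plain count of reads. How the authors set it is not stated in the sources used here.

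Tests used limma 3.58.1 in R 4.3.3: limma-trend on log2(FPKM + 0.1), which understates fold changes of low genes, for genes with a mean of at least 1 FPKM, two-sided, with treatment as the single term and Benjamini-Hochberg adjustment over all genes tested. Fold changes between means and means with SD are of FPKM itself; log2 fold changes, SE and 95% intervals are from limma. Titles gave each library its group and number. The chi-square of recovered reads was 4.01 to 13.4 per gene between libraries of a group, so no library repeated another. The steps were tested on simulated counts. Alternatives covered pseudocounts, filters, scalings, limma-voom with TMM factors, a replicate block and each library left out; scaling to nuclear reads was added after seeing the data.

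The members and gene lists were chosen with earlier results of these data known. Named genes are all 39 members, up to 4 called genes in each direction of the other pathway genes, up to 3 called genes of each cell cycle list, and PCNA and MKI67; further genes of the rule are not reported here.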

Additional observations from a re-analysis of the deposited data

How the results depend on the processing

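FANCE and ATR passed the test in each alternative that included them, and over those settings their log2 fold change relative to the median of all genes ran from -1.12 to -0.89 and from 0.44 to 0.57. Of 708 member values under the alternatives, 624 kept direction and call, 19 lost the call, 14 gained one and 51, in 22 genes, changed sign; none of those 22 was called in the first place. Named genes outside the members gave 302 values, of which 261 kept direction and call, 39 lost the call, 2 gained one and 0 changed sign. The higher and lower counts over all genes were 1947 and 1797. They became 5266 and 813 under TPM and 3024 and 1295 under equal listed reads. With 1 library left out they ran from 1125 to 1937 and from 987 to 1767. Member calls were 2 higher and 5 lower. They became 7 and 1 under TPM, 1 and 3 with no filter, and 1 and 5 at a minimum mean of 5 FPKM, where 24 members were tested; with 1 library left out they ran from 1 to 3 and from 2 to 7.

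Signs that changed were those of small log2 fold changes. Under TPM the values were XRCC2 0.21, FANCB 0.22, XRCC3 0.20, CHEK2 0.19, FANCL 0.18, RMI2 0.18, FANCG 0.17, RAD51C 0.17, MRE11 0.15, BLM 0.14, RAD51AP1 0.14, CHEK1 0.087, RAD54L 0.085, EXO1 0.065, RAD51D 0.049 and BARD1 0.0032. Under equal listed reads they were FANCB 0.072, XRCC2 0.070, XRCC3 0.060, CHEK2 0.048, FANCL 0.042, RMI2 0.035, FANCG 0.027, RAD51C 0.024 and MRE11 0.0075. Scaling to nuclear reads gave FANCB 0.014, XRCC2 0.011 and XRCC3 0.0019. Quantile normalization gave BRCA1 -0.0096, CLSPN -0.024 and TOPBP1 -0.0067, and median ratios gave CLSPN -0.011. With 1 library left out the ranges were FANCB -0.096 to 0.10, FANCC -0.027 to 0.13, FANCL -0.093 to 0.011, BRCA1 -0.031 to 0.061, BRIP1 -0.023 to 0.19, XRCC2 -0.080 to 0.020, XRCC3 -0.13 to 0.039, RAD51AP1 -0.22 to 0.021, ATM -0.045 to 0.094, TOPBP1 -0.043 to 0.096 and CLSPN -0.021 to 0.059. Under TPM, equal listed reads, nuclear reads and median ratios the members shifted together: relative to the median of all genes no member moved by more than 0.0086, 0.0062, 0.0024 and 0.0011, so these sign changes follow the shift of that median. For the other sign changes the cause was not tested.

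Replicate numbers did not pair the libraries: same-numbered libraries had deviations correlated at -0.033 to 0.034, and 2 of 6 libraries correlated best with their own number. With the replicate block, 1776 genes were higher and 1617 lower, and the members gave 2 higher and 4 lower, with UBE2T missing the threshold (adjusted p = 0.0648). Depth limits RAD54B, with 49 to 75 reads a library, and RAD50, with 139 to 186 reads.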
